A study of Mus musculus with 2 samples.

Results

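Imprinted genes are expressed mainly from the allele inherited from 1 parent, and several of them carry miRNA genes. The 5 miRNA genes described here lie in imprinted loci other than Dlk1-Dio3: Mir335 at Mest, Mir483 at Igf2, Mir675 at H19, and Mir296 and Mir298 at Gnas. They were named by symbol, with earlier results of these data known, and they are 5 of the 1973 miRNA genes listed in the count tables. All 5 were found. The RNA came from the stomach of mice at embryonic day 15.5 and was sequenced as small RNA below 30 nt. Replicate 1 combined stomachs of 78 embryos and replicate 2 those of 62, all of the B6NCrl strain, with males and females pooled and with no treatment or altered allele named in the labels. The libraries form 1 group with no second condition, so values are compared between genes and between the pools.

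As background, Mest, Igf2 and the Gnas antisense transcript Nespas are known to be transcribed from the paternal allele, and H19 from the maternal allele. H19 is a long non-coding RNA, and Igf2 encodes a fetal growth factor. A miRNA is cut from a hairpin in a longer transcript, and 1 of its arms is loaded into a silencing complex that pairs with target mRNAs mainly through the seed, bases 2 to 8. The counts are per gene, so they separate neither the arms nor the parental alleles.

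The mature sequences are shown because reads are assigned by sequence and because the seeds set which mRNAs each miRNA can pair with. RefSeq (build GRCm38.p6) gave a hairpin for all 5 genes and 10 mature sequences, written 5′ to 3′ with the seed in capitals.
mmu-miR-335-5p: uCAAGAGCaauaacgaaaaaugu
mmu-miR-335-3p: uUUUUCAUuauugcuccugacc
mmu-miR-296-5p: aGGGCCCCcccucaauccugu
mmu-miR-296-3p: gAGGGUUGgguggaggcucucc
mmu-miR-298-5p: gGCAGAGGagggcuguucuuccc
mmu-miR-298-3p: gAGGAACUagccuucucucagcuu
mmu-miR-483-5p: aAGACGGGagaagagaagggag
mmu-miR-483-3p: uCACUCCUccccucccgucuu
mmu-miR-675-5p: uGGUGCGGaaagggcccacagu
mmu-miR-675-3p: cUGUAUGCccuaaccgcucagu
The 10 sequences had 10 distinct seeds, so no members formed a seed family, not even the neighbours Mir296 and Mir298. Among the 1738 mature sequences of the RefSeq table, 0 of other genes shared a seed with a member. None of the 10 occurred whole in the hairpin of another gene of that table. In GENCODE M21 transcripts they were found only in the miRNA's own transcript and, for both arms of Mir675, in H19. The genome itself was not searched.

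Base composition set Mir335 apart from the other members. The mature arms of Mir335 held 30.4% and 36.4% G and C, and 1.40% and 5.73% of the 1501 mature sequences of listed genes had a lower share. The other 8 arms held between 50.0% and 68.2%, against a median of 52.4% over those 1501. The hairpins of the highest and the lowest member show this contrast, with the mature arms in capitals.
Mir335: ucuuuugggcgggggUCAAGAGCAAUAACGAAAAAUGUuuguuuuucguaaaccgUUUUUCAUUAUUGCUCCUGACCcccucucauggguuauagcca
Mir675: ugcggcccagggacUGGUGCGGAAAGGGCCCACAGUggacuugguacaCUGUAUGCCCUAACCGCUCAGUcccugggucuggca
The Mir335 hairpin had 42.9% G and C over 98 bases and the Mir675 hairpin 63.1% over 84 bases, against a median of 52.3% over the 869 hairpins of listed genes. The predicted folding energy per base was -0.45 kcal/mol for Mir335 and -0.67 kcal/mol for Mir675, with a median of -0.41 kcal/mol over the same hairpins. All 5 members were thus predicted to fold more firmly per base than the median hairpin. Among members Mir675, the lowest in counts, had the most negative value, and Mir335, the highest, the least negative. Mir296, Mir298 and Mir483 had -0.55, -0.52 and -0.46 kcal/mol. A relation of energy to level was not tested.

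The members differ in how they sit in their hosts (GENCODE M21, assembly mm10). Mir335 lies on chromosome 6 (30741299 to 30741396, plus strand) inside Mest, a gene of the mesoderm, and is intronic in all 7 Mest transcripts that span it. Mir483 lies on chromosome 7 (142654924 to 142654996, minus strand) and is intronic in all 7 Igf2 transcripts that span it. The same interval also lies in Gm49394, a longer gene of the same strand. Mir675 lies 77776 bases from it (142577064 to 142577147, minus strand), and is exonic in 3 and intronic in 1 of the 4 H19 transcripts that span it. Short fragments of H19 RNA from this interval would be counted with Mir675. Mir296 (174267047 to 174267125) and Mir298 (174267504 to 174267585) lie on the minus strand of chromosome 2, with 378 bases between them. This annotation places both outside Nespas: they lie 14111 and 13651 bases past the end of that gene, and no other gene overlaps them.

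The libraries held 5988677 and 6675498 sense-strand counts of miRNA genes, and values are given as CPM, counts per 1000000 of that total. A count of 0 allows up to 0.501 CPM in replicate 1 and 0.449 CPM in replicate 2, and this limit and all intervals cover counting error only. The stomach label was checked against marker genes: smooth muscle (Mir143, Mir145a) held 17.8% and 18.3% of counts and epithelium (Mir200c, Mir429, Mir141) 3.44% and 3.53%. Mir203 and Mir205 of stratified epithelium held 1.72% and 1.18% of counts, and Mir375 of endocrine cells 1.29% and 2.32%. Of the markers of other sources, the liver gene Mir122 stood at 2445 and 757 CPM. The 3 erythroid genes summed to 727 and 345 CPM, the 3 acinar pancreas genes to 5.84 and 3.75 CPM and the 3 trophoblast genes to 4.17 and 2.70 CPM. The striated muscle genes summed to 109 and 193 CPM, Mir223 of white blood cells stood at 1247 and 1112 CPM, and Mir137 of the neural list at 1332 and 1148 CPM, with Mir124a-1 at 0 in both. Reads matching several places were not assigned to genes, so the 0 of Mir124a-1 need not mean absence.

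All 5 members were detected in both libraries, with at least 837 counts each, at mean levels from 140 CPM for Mir675 to 51690 CPM for Mir335. Mir335, a miRNA studied for its part in restraining cell invasion, had 285648 and 371703 counts. That was 47698 CPM in replicate 1 (95% Wilson interval 47528 to 47869) and 55682 CPM in replicate 2 (55508 to 55856), or 51690 ± 5645 CPM (SD, n = 2). It was the highest member in both libraries by a wide margin. Among all listed miRNA genes it ranked 4 by mean CPM (5 in replicate 1 and 4 in replicate 2). Ranks and shares hold for assigned counts only. Reads matching several places were not assigned, so miRNA genes with like copies may rank too low. The members together held 5.82% ± 0.518 of the counts (SD, n = 2), of which Mir335 made up 87.4% in replicate 1 and 90.0% in replicate 2.

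The Gnas neighbours came next and stood close to each other. Mir296, a miRNA known from endothelial cells, had 17523 and 18145 counts, or 2926 and 2718 CPM, with a mean of 2822 ± 147 CPM (SD, n = 2). Mir298 had 12251 and 13579 counts, or 2046 and 2034 CPM, with a mean of 2040 ± 8.16 CPM (SD, n = 2). Mir296 was above Mir298 in both libraries.

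The members of the Igf2 and H19 domain were lower. Mir483, the intronic miRNA of Igf2 that is known to be high in some embryonal tumours, had 10386 and 8824 counts, or 1734 and 1322 CPM. Its mean was 1528 ± 292 CPM (SD, n = 2). Mir675, the H19 miRNA known to limit growth of the placenta, had 924 and 837 counts, or 154 and 125 CPM, with a mean of 140 ± 20.4 CPM (SD, n = 2). Mir675 was the lowest member in both libraries, and both genes were lower in replicate 2. In these bulk samples a lower level can mean fewer cells of a type or less RNA per cell, which cannot be told apart.

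**Figure D1:**
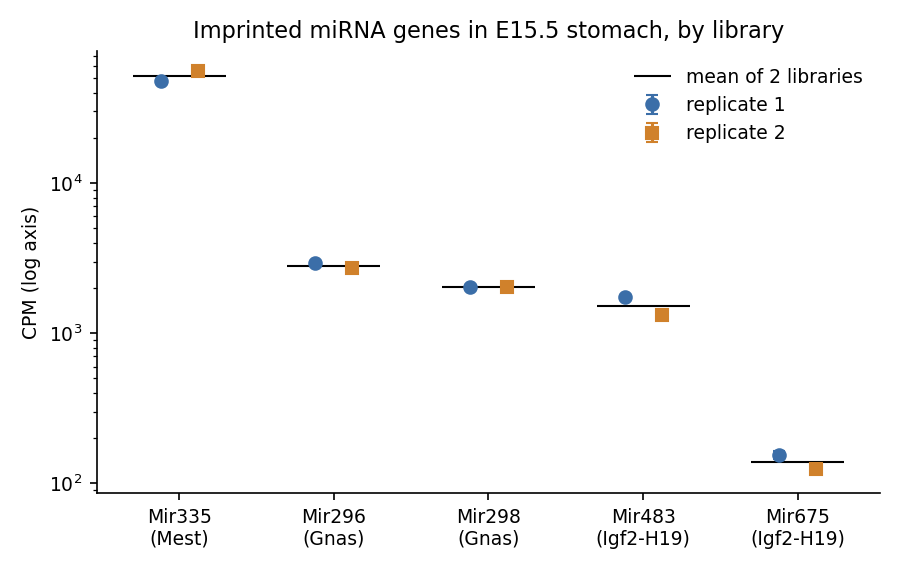
CPM of each member on a log axis, with circles for replicate 1, squares for replicate 2, 95% Wilson intervals (mostly smaller than the symbols) and a line at the mean of the 2 libraries. Mir335 stands at 47698 and 55682 CPM, far above the other 4, and Mir675 is lowest at 154 and 125 CPM.

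The order of the members was the same in both libraries: Mir335, Mir296, Mir298, Mir483, Mir675. The distance between members within a library is given as a difference on the log2(CPM + 1) scale, and neighbours were taken to differ where both libraries had the same order and the mean difference exceeded 2 SD. Their mature forms are 21 to 24 nt long, so levels were not divided by length. Mir335 exceeded Mir296 by 4.19 ± 0.23 (SD, n = 2), which is 16.3 times its counts in replicate 1 and 20.5 times in replicate 2. Mir296 exceeded Mir298 by 0.47 ± 0.07, or 1.43 and 1.34 times, a small but repeated gap. Mir298 exceeded Mir483 by 0.43 ± 0.27, or 1.18 and 1.54 times, which did not exceed 2 SD. Mir483 exceeded Mir675 by 3.43 ± 0.07, or 11.2 and 10.5 times. Of the 10 pairs of members, the 9 others met the rule and only Mir298 over Mir483 did not. From the highest to the lowest member, Mir335 exceeded Mir675 by 8.52 ± 0.37, which was 309 times in replicate 1 and 444 times in replicate 2.

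The place of each member among all miRNA genes was read from the genes next to it in mean CPM. Mir335 stood between Mirlet7g (53795 ± 2755 CPM, SD, n = 2) and Mirlet7i (50239 ± 864 CPM), members of the developmental let-7 family, and differed from neither beyond 2 SD. Mir296 stood at rank 55 between Mir18 and Mirlet7f-2, Mir298 at rank 64 between Mir22 and Mir324, and Mir483 at rank 81 between Mir455 and Mir192. Again none of these differed from either neighbour beyond 2 SD. Mir675 stood at rank 180 between Mir500 and Mir449a. The difference of Mir675 from Mir500 (158 and 129 CPM) was -0.038 ± 0.010 on the log2 scale (SD, n = 2), which met the 2 SD rule. Yet Mir500 lay inside the Wilson intervals of Mir675 in both libraries (145 to 165 and 117 to 134 CPM), so the gap was within counting error. Mir449a did not differ from Mir675 beyond 2 SD. With at least 10 summed counts, 466 genes were tested between the pools, and 61.4% of these had a lower mean CPM than Mir675. For Mir483, Mir298, Mir296 and Mir335 that share was 82.6%, 86.3%, 88.2% and 99.1%.

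**Figure D2:**
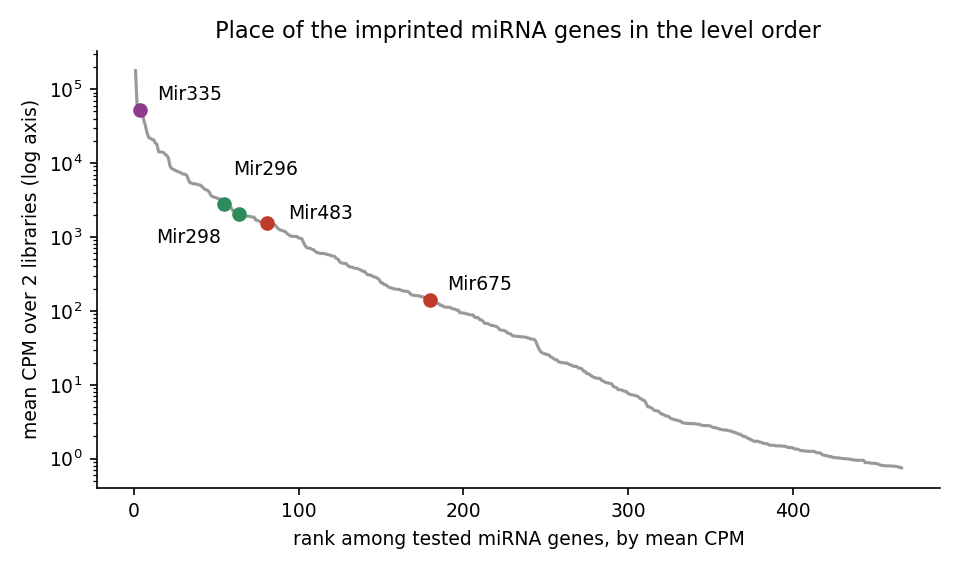
Mean CPM (log axis) of the 466 tested miRNA genes against their rank, as a grey line, with the 5 members as points coloured by locus (Mest purple, Gnas green, Igf2-H19 red). Mir335 is at rank 4, Mir296, Mir298 and Mir483 lie between ranks 55 and 81, and Mir675 is at rank 180.

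By locus, Mest held 5.17% ± 0.565 of counts (SD, n = 2) through Mir335 alone, Gnas 0.486% ± 0.0155 and Igf2-H19 0.167% ± 0.0312. Beside these stand 2 other imprinted miRNA regions. Dlk1-Dio3, whose miRNAs come from the maternal allele, was taken as the 53 listed genes of the plus strand between Meg3 and Mirg, and held 6.89% ± 0.160. The 107 listed genes inside Sfmbt2, a region of repeated miRNA copies known to be imprinted in the placenta, held 0.612% ± 0.0273. Multi-mapping reads were not assigned to genes, so the Sfmbt2 share, and that of Dlk1-Dio3, may be too low.

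Mir335 alone thus came near the summed counts of the 53 listed Dlk1-Dio3 genes. It had 0.681 times that sum in replicate 1 and 0.821 times in replicate 2. The difference was -0.42 ± 0.19 on the log2 scale (SD, n = 2), just past 2 SD. That sum leaves out reads matching several places. It also leaves out plus-strand reads opposite to Mir299b, a minus-strand gene of the region (12188 and 10912 counts). Mir335 also exceeded every single listed Dlk1-Dio3 gene. The highest of these, Mir411, stood at 12124 and 11124 CPM, and Mir335 exceeded it by 2.15 ± 0.25 on the log2 scale, 3.93 times in replicate 1 and 5.01 times in replicate 2. The next highest outside the Rtl1-antisense block were Mir487b (7490 ± 5.02 CPM) and Mir369 (6086 ± 788 CPM). The other members fell within the range of that region: 8 of its 53 genes were above Mir296 in mean CPM, 9 above Mir298, 11 above Mir483 and 29 above Mir675. Of its Rtl1-antisense block, Mir127 (9049 ± 11.8 CPM), Mir431 (3587 ± 277 CPM), Mir434 (1689 ± 496 CPM) and Mir433 (1032 ± 5.40 CPM) bracketed the Gnas and Igf2 members. Of the Sfmbt2 genes, Mir467e (1906 ± 58.1 CPM) and Mir467d (1632 ± 3.50 CPM) had a mean above that of Mir483, and Mir467c (1465 ± 191 CPM) came just below it. All 5 members had at least 10 counts in both libraries, as did 43 of 53 Dlk1-Dio3 genes and 10 of 107 Sfmbt2 genes. Over all listed genes this held for 369 of 1973.

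**Figure D3:**
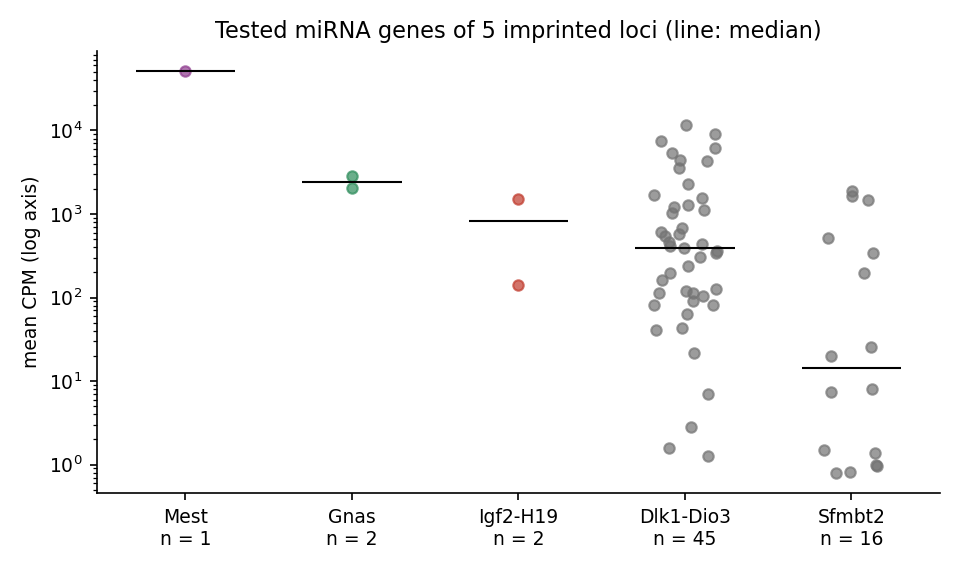
Mean CPM (log axis) of each tested miRNA gene at 5 imprinted loci, with 1 point per gene and a line at the median of each locus; n is the number of tested genes. Mir335 at Mest lies above all 45 tested Dlk1-Dio3 genes, of which the highest is Mir411 at 11624 CPM, while the Gnas and Igf2-H19 genes lie within the Dlk1-Dio3 range.

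Between the pools, members that shared a locus (Mir296 and Mir298, Mir483 and Mir675) had ratios closer to each other than members of different loci. These are only 2 pairs over 2 libraries, and genes of other loci came closer still. Of the 49 to 64 tested genes within 2-fold of each in mean CPM, the closest differed in log2 ratio by 0.0011 to 0.0077. Mir335 was higher in replicate 2, Mir483 and Mir675 were lower, and the Gnas genes lay between them. The log2 ratio of replicate 2 over replicate 1, with 1 CPM added, was 0.22 for Mir335 (95% exact interval 0.22 to 0.23). It was -0.11 for Mir296 (-0.14 to -0.08) and -0.0082 for Mir298 (-0.044 to 0.027). For Mir483 it was -0.39 (-0.43 to -0.35) and for Mir675 -0.30 (-0.44 to -0.16). Genes of the larger imprinted regions were not all close to each other. Their ratios ran from -1.45 to 0.47 over the tested Dlk1-Dio3 genes (quartiles -0.28 and 0.04). Over those of Sfmbt2 they ran from -0.95 to 0.73 (quartiles -0.46 and 0.04). Genes with low counts set both Sfmbt2 limits and the upper Dlk1-Dio3 limit. The highest Sfmbt2 genes by mean CPM, Mir467e, Mir467d and Mir467c, stood closer, at 0.06, 0.0044 and 0.27. Within the Rtl1-antisense block Mir431 stood at 0.16 and Mir434 at -0.61, with Mir433 (0.011) and Mir127 (-0.0027) between them. The median of the 466 tested genes was -0.11, so relative to it Mir335 stood at 0.34, Mir298 at 0.11, Mir296 at 0.0073, Mir675 at -0.18 and Mir483 at -0.28. The signs for Mir296 and Mir298 depend on the scaling, since edgeR's TMM raised all ratios by 0.13 and put these genes at 0.022 and 0.12. The signs for Mir335, Mir483 and Mir675 were the same with library totals, TMM and DESeq2 size factors.

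None of the 5 members passed the test between the pools, a two-sided exact binomial test with Benjamini-Hochberg adjustment over all 466 genes, in which a call needed an adjusted p under 0.05 and a 2-fold difference. By that rule 27 genes were called, 5.79% of those tested. Without the fold limit 4 of 5 members passed, Mir335 higher (as were 13.1% of all tested genes) and Mir296, Mir483 and Mir675 lower (as were 33.3%). In either direction 46.4% of all tested genes passed, and 87.9% of the 99 tested genes at 1000 CPM or more. The adjusted p of this binomial test was 1.5e-11 for Mir296, 0.783 for Mir298, 1.0e-77 for Mir483 and 4.6e-05 for Mir675, and for Mir335 it was smaller than 2.2e-308. These calls without a fold limit change with the scaling. With TMM the adjusted p of the exact binomial test was 0.238 for Mir296, 8.5e-11 for Mir298, now higher, and 0.030 for Mir675. With DESeq2 size factors it was 0.0028 for Mir296 and 8.0e-16 for Mir298, both now higher, and 0.084 for Mir675, which no longer passed. Mir335 and Mir483 passed in the same direction under both. The test sets counting error against 1 library on each side, so it compares these libraries and not conditions. By edgeR's exact test, whose dispersion came from these 2 libraries themselves, 0 of 5 members passed (0.858% of all tested genes did). Among the members the lowest unadjusted p of that test was 0.384, for Mir483.

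Beside all 466 tested genes, whose median level was 45.1 CPM, the sizes of these ratios were ordinary. A ratio at least as far from 0 as that of Mir483 was seen in 32.0% of the 466 genes, and for Mir675, Mir335, Mir296 and Mir298 that share was 45.7%, 56.7%, 73.6% and 97.4%. Ratios were narrower among the 99 tested genes at 1000 CPM or more, with a median size of 0.15 against 0.27 over all 466. The quartiles of these 99 were -0.22 and 0.06, so Mir335 and Mir483 lay outside them and Mir296 and Mir298 inside. The median ratio of the 5 members was -0.11, with 1 higher and 4 lower. In Dlk1-Dio3 the median of the 45 tested genes was -0.11 too, with 16 higher and 29 lower, and 1 gene, Mir495 (-1.45), passed the test. Without the fold limit 7 of these 45 were higher and 20 lower. In Sfmbt2 the median of 16 tested genes was -0.07, none passed, and without the fold limit 3 were higher and 3 lower. Over all 466 genes 171 were higher and 295 lower.

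**Figure D4:**
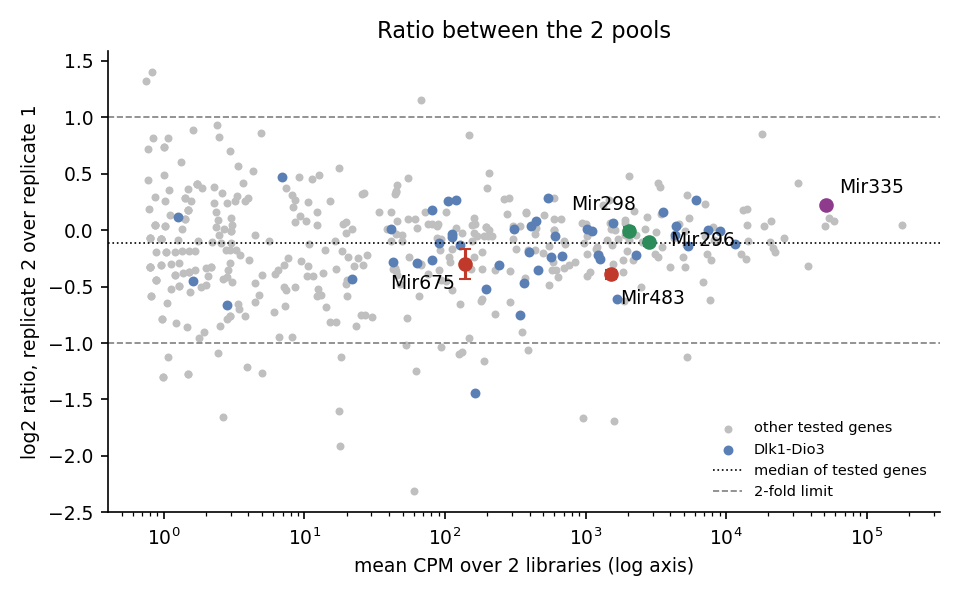
Log2 ratio of replicate 2 over replicate 1 against mean CPM (log axis) for the 466 tested genes in grey, Dlk1-Dio3 genes in blue and the 5 members coloured by locus (Mest purple, Gnas green, Igf2-H19 red) with 95% exact intervals. The members lie between -0.39 and 0.22, inside the dashed 2-fold limits, and the dotted line marks the median of -0.11.

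Ratios of members were also set against each other, which needs no scaling because both genes come from the same libraries. The difference between Mir483 and Mir675, of the same imprinted domain, was -0.09 on the log2 scale (95% exact interval -0.24 to 0.05), an interval that includes 0. The difference between the Gnas neighbours Mir296 and Mir298 was also small, at -0.10 (-0.14 to -0.05), though its interval left out 0. Between loci the differences themselves were larger, though some of their intervals overlapped in size those within loci. Mir335 differed from Mir483 by 0.62 (0.57 to 0.66), from Mir675 by 0.52 (0.39 to 0.66), from Mir296 by 0.33 (0.30 to 0.36) and from Mir298 by 0.23 (0.20 to 0.27). Mir298 differed from Mir483 by 0.38 (0.33 to 0.44) and from Mir675 by 0.29 (0.15 to 0.43), and Mir296 from these by 0.29 (0.23 to 0.34) and 0.19 (0.05 to 0.33). These intervals describe 2 libraries and do not hold the spread between pools.

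**Figure D5:**
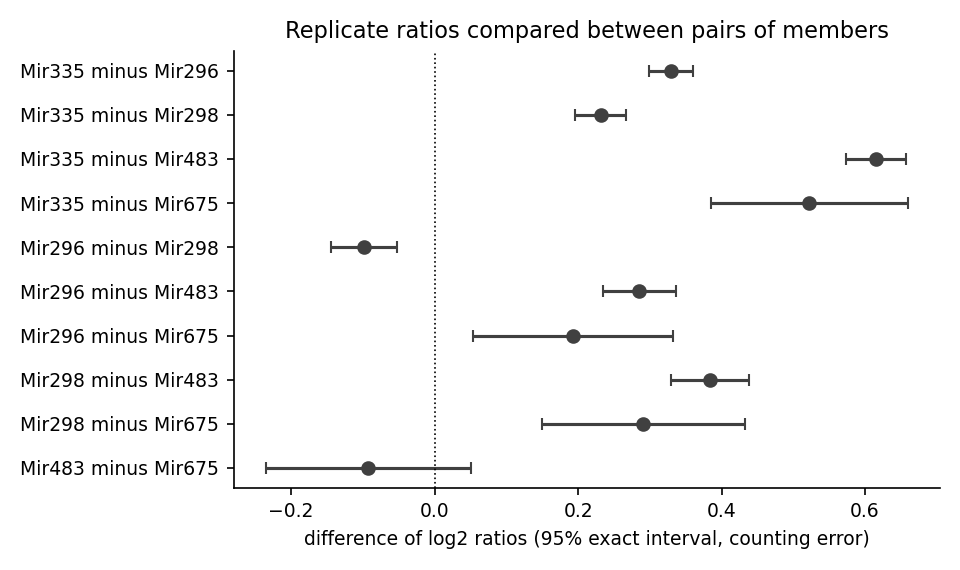
Difference of the log2 ratios (replicate 2 over replicate 1) for all 10 pairs of members, with 95% exact intervals that cover counting error only. The within-locus pairs, Mir296 minus Mir298 and Mir483 minus Mir675, lie at -0.10 and -0.09, and the other 8 differ by 0.19 to 0.62.

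Markers of other cell types moved between the same pools. Lower in replicate 2, as were Mir483 and Mir675, were Mir122 of liver (-1.69 on the log2 scale) and the erythroid genes Mir451a (-1.06), Mir144 (-1.10) and Mir486 (-1.13). Mir203 and Mir205 of stratified epithelium stood at -0.62 and -0.46. The smooth muscle genes split, with Mir145a at -0.51 and Mir143 at 0.05, and Mir137 and Mir223 stood at -0.21 and -0.17. Mir200c, Mir429 and Mir141 of epithelium hardly moved (0.05, 0.04 and -0.04). The acinar and trophoblast genes with counts were low and mixed, from -1.13 for Mir216a (11 and 2 counts) to 0.51 for Mir291a (2 and 6 counts). Higher in replicate 2, as was Mir335, were Mir375 of endocrine cells (0.85) and Mir206 of skeletal muscle (0.85). The other striated muscle markers were few in counts: Mir133b stood at -0.33 (15 and 12 counts, adjusted p = 0.590 by the exact binomial test), and Mir1a-1 had 1 and 0 counts. The Mir1a-1 counts, too, may be low because reads matching several places were not assigned. The part of all these markers in the members' ratios was not tested.

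Genes with the most similar pool ratio were sought among tested genes within 2-fold of each member's mean CPM, a likeness over 2 libraries only. For Mir335, with 5 genes in that window, the closest were Mirlet7g (0.10) and Mir99a (0.08), both less raised than Mir335 itself. For Mir483, with 49, they were Mir101b (-0.39) and Mir199b (-0.41). For Mir296 they were Mir92-1 (-0.10) and Mir324 (-0.09), and for Mir298 Mir1193 (-0.010) and Mir181d (-0.016). For Mir675 they were Mir667 (-0.30) and Mir185 (-0.31). Mir1193 and Mir667 are genes of Dlk1-Dio3.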

How the data were processed

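Each library's table held whole-number read counts per miRNA gene. Per the deposited description files the authors made these counts from 1 alignment per library on mm10 with GENCODE M4. Aligner and counter: not given in the sources used here. All 3 count columns are unnamed. In gene rows the first is the total of the other two, of which the second column, with nearly all counts, was taken as sense. Lines that name no gene were left out. They held reads matching several places (25.5% and 27.0% of all reads), unmapped reads (18.0% and 16.2%) and reads outside the genes (2.92% and 2.26%). Sense counts of genes made up 51.8% and 52.8%.

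Symbols were matched by identifier to GENCODE M21 for 1894 of 1973 genes. CPM used the library total of sense counts. Genes with at least 10 summed counts were tested as described, and the steps were tested on simulated data. Members and lists were chosen with earlier results of these data known. Named besides the members were the genes directly above and below each in mean CPM, the Rtl1-antisense block, the 3 highest other Dlk1-Dio3 and Sfmbt2 genes, marker genes and the 2 genes closest in ratio. Outside that rule Mir495 and Mir299b were named after their values were seen. Mir136 and Mir9-1 were not analysed here. The labels say that the libraries came from separate pools, so SD and n refer to pools. Alternatives covered scaling, pseudocount, strand, count minimum, denominator and each replicate left out. Tools were edgeR 4.0.16 and DESeq2 1.42.0 in R 4.3.3, RNAfold of ViennaRNA 2.7.2, and scipy 1.17.1, numpy 2.4.6, pandas 2.3.3 and matplotlib 3.10.9 in Python 3.11.15.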

Additional observations from a re-analysis of the deposited data

Results flagged for a closer look

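On the strand opposite to Mir335 there were 7 counts in replicate 1 and 4 in replicate 2, which lie outside the sense counts used for the levels and above the 3 counts that a count of 0 allows. The other 4 members had 0 in both libraries, except Mir675 with 2 in replicate 2. Reads matching several places, also outside the gene counts, numbered 2946663 in replicate 1 and 3406967 in replicate 2. How many of them came from the members was not tested.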

How the results depend on the processing

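Over all reads of the tables as the denominator, the levels were 27067 reads per 1000000 for Mir335, 1476 for Mir296, 1067 for Mir298, 798 for Mir483 and 73.1 for Mir675, lower by construction. Counting both strands enlarged the denominator, and Mir298 then stood at 1974 CPM, the Gnas share at 0.470% and the Dlk1-Dio3 share at 6.67%. Mir296 and Mir298 had 0 opposite-strand counts, so their lower values followed from the denominator by construction. With TMM the log2 ratio of Mir296 turned to 0.022 (exact binomial test, adjusted p = 0.238) and that of Mir298 to 0.12, and with DESeq2 size factors they were 0.050 and 0.15. The median of the members turned to 0.022 with TMM and 0.050 with DESeq2 size factors, and that of Dlk1-Dio3 to 0.012 and 0.040. The median of all tested genes became -0.013 with TMM, 0 with DESeq2 size factors by construction, -0.12 with pseudocount 0.5, -0.089 with pseudocount 5 and -0.10 with a minimum of 100 summed counts. The 27 genes called became 16 with that minimum, which tests fewer genes, 4 by edgeR's exact test, whose spread includes the difference between the pools, and 216 where any fold was allowed. The order of the members, and all 5 being detected, held in each library alone. No paired analysis was possible because there is only 1 group of samples. The smallest counts, 924 and 837 for Mir675, set the widest interval.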
